A study of Homo sapiens with 3 samples.

Results

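The aminoacyl-tRNA synthetases are the enzymes that join each amino acid to its tRNA, and the genes of 35 of them were examined here, 19 for cytosolic and 16 for mitochondrial enzymes. The 35 genes were a list of synthetases drawn up by name, and the RefSeq accession of each array probe, without its version, was matched to current gene symbols. All 35 had at least 1 probe, out of 19699 genes that could be named on the array. The genes of the aspartyl enzymes were not on the list and were not analysed here. Cells of PANC-1, a human line established from a pancreatic cancer, had been left untreated (control), treated with 20 µM cantharidin, or treated with 20 µM okadaic acid, and the labels give 24 h of treatment. The dose of okadaic acid is that of its sample label, and the wording of the treatment protocol leaves unclear whether the dose it states holds for cantharidin alone. Cantharidin is a terpenoid from blister beetles and okadaic acid is a polyether toxin from marine dinoflagellates. Both inhibit protein phosphatase 2A (PP2A), and the study used the arrays to follow transcripts after its inhibition. Total RNA of each group was labelled with Cy3 and hybridised to 1 Agilent array, so differences between groups have no replicate check and could not be tested.

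Translation runs in both the cytosol and the mitochondria of a human cell, and nuclear genes supply synthetases to both compartments. By the usual naming, genes ending in 1 encode the cytosolic enzyme and genes ending in 2 the mitochondrial one, but GARS1 and KARS1 each encode the glycyl or lysyl enzyme of both places. Several cytosolic synthetases sit together in a multi-synthetase complex, and transcripts of many cytosolic synthetases are known targets of ATF4, the transcription factor of the amino acid response, which is made when uncharged tRNA or other stresses lead to phosphorylation of the initiation factor eIF2.

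Values are spot intensities, and differences are given on the log2 scale once every array had been divided by its 75th percentile intensity (784 on the control array, 713 with cantharidin, 936 with okadaic acid). Higher and lower mean a difference of at least 1.5-fold, the threshold the study used. The lowest intensity of a probe well above background was 35.0 for control, 21.9 with cantharidin and 58.0 with okadaic acid. Among probes spotted 10 times, the median spread between spots of an array gave an SD of 0.104 for a log2 difference of cantharidin from control, 0.0885 for okadaic acid from control and 0.109 for okadaic acid from cantharidin. These SDs hold the noise of a typical spot, which was wider for dim probes, and leave out the variation between cultures. The epithelial markers KRT7, KRT8, KRT18 and KRT19 and the mesenchymal marker VIM, which carcinoma lines often express, were well above background on all 3 arrays. CPA1 (acinar cells), PECAM1 (endothelium) and LUM (fibroblasts) were not well above background on any array, PRSS1, CELA3A and DCN lay at up to 11.4 times the lowest such intensity, and PTPRC, CD3E and CDH5 at 6.72 to 15.9 times. CD68, a lysosomal protein used as a macrophage marker, lay at 84.1 to 219 times that intensity, and its part in any result was not tested.

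Under cantharidin most cytosolic synthetase genes were higher and most mitochondrial ones were lower than in control. Of the 19 cytosolic genes, 13 were higher, 4 were lower and 2 were within 1.5-fold of control, where 27.5% of all 16644 genes compared were higher and 34.1% were lower. Of the 16 mitochondrial genes, 2 were higher, 10 were lower and 4 were within 1.5-fold. The median log2 difference was 0.85 for the cytosolic genes, -0.98 for the mitochondrial genes and -0.16 for all genes. The cytosolic median thus exceeded the mitochondrial one by 1.83 on the log2 scale. RNA came from whole cultures, so less RNA per cell and fewer cells holding a transcript cannot be told apart.

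Under okadaic acid the cytosolic genes were split evenly, with 6 higher, 6 lower and 7 within 1.5-fold of control. The share on each side was 31.6%, near the 28.1% higher and 28.8% lower among all 16166 genes compared. One of the 6 lower genes, LARS1, was not well above background on the okadaic acid array. Of the mitochondrial genes 4 were higher, 8 were lower and 4 were within 1.5-fold. These are 25% higher, near the share of all genes, and 50% lower. MARS2, among the 8, was not well above background on the okadaic acid array, and its bound was 1.23-fold. With dim signals set to the floor of their array 7 mitochondrial genes were lower. Medians were -0.32 for cytosolic genes, -0.72 for mitochondrial genes and 0.01 for all genes. The gap between the class medians was 0.40. It shrank to 0.094 with another background correction, the normexp model with an offset of 50 added to every intensity. The comparisons of both agents used the same control array, so any deviation of that array enters both.

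**Figure D1:**
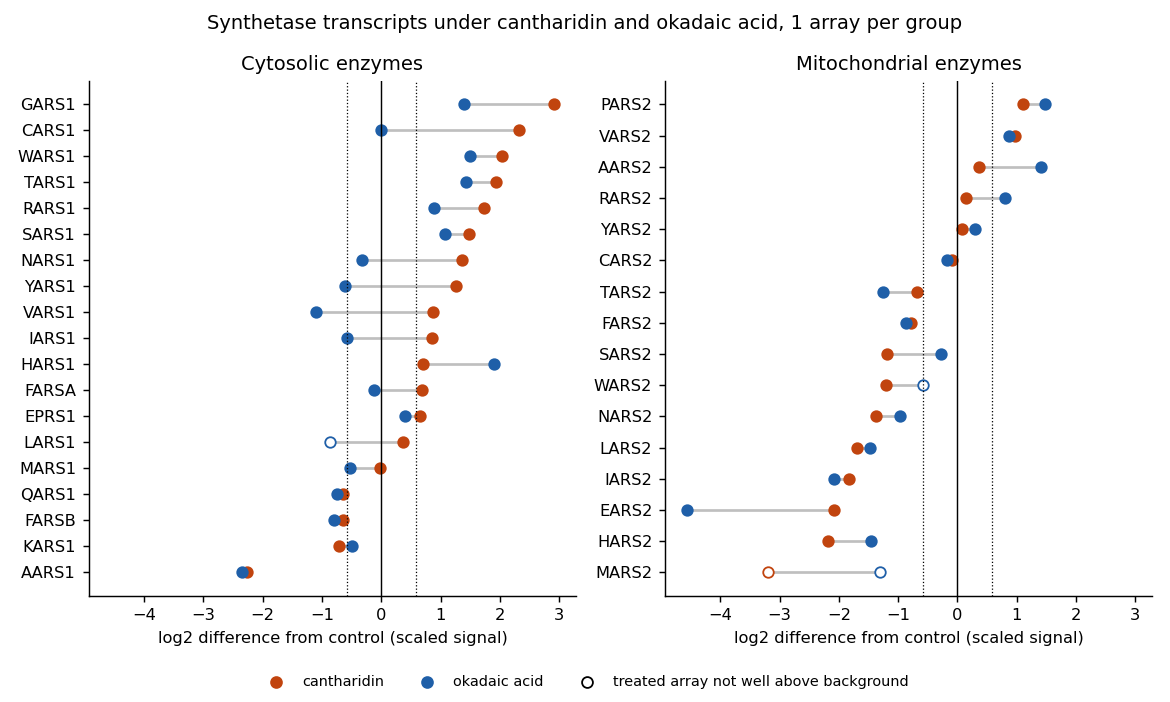
Log2 difference from control of each synthetase gene, with cytosolic enzymes at left and mitochondrial enzymes at right, sorted by the cantharidin value. Each point is a difference between single arrays, hollow points had a treated array not well above background, and dotted lines mark 1.5-fold. GARS1 (2.91) leads the cantharidin values, AARS1 (-2.26) is the lowest cytosolic value, and EARS2 under okadaic acid (-4.56) is the lowest of all.

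Of the 7 enzymes of the multi-synthetase complex on the list, 3 were higher and 2 lower under cantharidin (42.9% and 28.6%, median 0.36), and 1 was higher and 2 lower under okadaic acid (14.3% and 28.6%, median -0.53). With so few genes, these shares are not far from those of all genes (27.5% and 34.1% with cantharidin, 28.1% and 28.8% with okadaic acid). RARS1, the arginyl enzyme, had intensities of 2785 in control cells, 8442 with cantharidin and 6160 with okadaic acid. It was the only complex member higher under both agents, by 3.34-fold and 1.85-fold. EPRS1, which charges both glutamate and proline and also takes part in a complex that represses translation of inflammatory transcripts, read 2108, 3014 and 3304 on the same arrays, 1.57-fold higher under cantharidin and 0.39 on the log2 scale under okadaic acid. IARS1, the isoleucyl enzyme, read 6715, 11005 and 5400, which was 1.80-fold higher under cantharidin and -0.57 on the log2 scale under okadaic acid, just within 1.5-fold. It was the only one of these 3 with its lowest intensity on the okadaic acid array. Of 2 further IARS1 probes, the brighter read 1738, 3040 and 961, with log2 differences of 0.95 and -1.11, and the dimmer read 63.3, 131 and 53.7, with 1.18 and -0.49, the last spot not well above background.

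The lysyl and glutaminyl enzymes of the complex went the other way under cantharidin. KARS1 read 34859 in control cells, 19391 with cantharidin and 29505 with okadaic acid, 1.63-fold lower under cantharidin and -0.50 on the log2 scale under okadaic acid. QARS1 read 32364, 18801 and 23117, 1.56-fold and 1.67-fold lower. Before scaling both genes were dimmest on the cantharidin array, and after scaling KARS1 was lowest with cantharidin and QARS1 with okadaic acid. MARS1, the methionyl enzyme, read 15320, 13697 and 12701, with log2 differences of -0.02 and -0.53, so neither agent took its brighter probe past 1.5-fold. A second, dimmer MARS1 probe read 615, 1117 and 523, 2.00-fold higher with cantharidin and -0.49 on the log2 scale with okadaic acid, so the probes of this gene disagreed for cantharidin. LARS1, the leucyl enzyme and a leucine sensor for mTORC1, was dim throughout, at 48.3, 56.4 and 31.5. Its okadaic acid spot was not well above background, and no fold is given there.

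The 12 cytosolic enzymes outside the complex held most of the increase under cantharidin, with 10 higher and 2 lower (median 1.31). These are 83.3% and 16.7%, against 27.5% and 34.1% of all genes. Under okadaic acid 5 were higher and 4 lower (41.7% and 33.3%, median -0.06). With so few genes, this is not far from the 28.1% and 28.8% of all genes. GARS1, the glycyl enzyme shared with mitochondria, read 1987 in control cells, 13606 with cantharidin and 6208 with okadaic acid. It was 7.54-fold higher under cantharidin, the largest increase of the family, and 2.62-fold higher under okadaic acid. WARS1, the tryptophanyl enzyme, also known as an interferon-induced gene, read 2463, 9188 and 8326 and was 4.10-fold and 2.83-fold higher. TARS1, the threonyl enzyme, read 5329, 18580 and 17100 and was 3.84-fold and 2.69-fold higher. SARS1, which charges serine tRNA and the selenocysteine tRNA, read 12466, 31732 and 31457 and was 2.80-fold and 2.11-fold higher. In these 4 genes both treated arrays lay above the control array.

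A second set outside the complex was higher under cantharidin and near or below control under okadaic acid. CARS1, the cysteinyl enzyme, read 1524 in control cells, 6959 with cantharidin and 1817 with okadaic acid, 5.03-fold higher with cantharidin and level with control with okadaic acid after scaling. NARS1, the asparaginyl enzyme, was spotted 10 times on each array. Its control spots ran from 2524 to 2686, its 8 usable cantharidin spots from 5594 to 6665 and its okadaic acid spots from 2434 to 2656. All cantharidin spots of NARS1 lay above all control spots, a 2.58-fold increase. The okadaic acid spots overlapped the control spots before scaling but all lay below them after it, with a log2 difference of -0.32, within 1.5-fold. FARSA, the alpha subunit of the phenylalanyl enzyme, was 1.61-fold higher under cantharidin and -0.12 on the log2 scale under okadaic acid. Its partner subunit FARSB was lower under both agents, at 935, 541 and 641 (1.57-fold and 1.74-fold). Under cantharidin these subunits differed in sign, with both values close to 1.5-fold: over the alternatives FARSA ran from 0.55 to 0.76 and FARSB from -0.79 to -0.52 on the log2 scale, each falling within 1.5-fold in at least 1.

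Going by the brightest probe of each gene, VARS1 and YARS1 crossed 1.5-fold in opposite directions under the agents, the only 2 of the 35 genes to do so. A further IARS1 probe also did so (0.95 and -1.11), while its brightest probe stayed just within 1.5-fold under okadaic acid (-0.57). The share of all genes crossing in opposite directions was not counted, so the 2 genes have no reference to be set against. VARS1, the valyl enzyme, read 21955 in control cells, 36537 with cantharidin and 12183 with okadaic acid. It was 1.83-fold higher with cantharidin and 2.15-fold lower with okadaic acid. YARS1, the tyrosyl enzyme, whose fragments have been described as cytokines, read 1519, 3291 and 1188. It was 2.38-fold higher with cantharidin and 1.53-fold lower with okadaic acid, and the latter value ran from -0.73 to -0.35 on the log2 scale over the alternative settings, within 1.5-fold in 5 of 10.

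AARS1 and HARS1 had patterns of their own. AARS1, the alanyl enzyme, read 1042 in control cells, 197 with cantharidin and 245 with okadaic acid, 4.80-fold and 5.07-fold lower, while every other cytosolic gene well above background on both arrays was at most 2.15-fold lower. HARS1, the histidyl enzyme, known as the Jo-1 autoantigen of myositis, read 3996, 5934 and 17749. It was 1.63-fold higher with cantharidin and 3.72-fold higher with okadaic acid, and it was the only cytosolic gene for which the okadaic acid array was higher than the cantharidin array by 1.5-fold or more (2.28-fold).

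**Figure D2:**
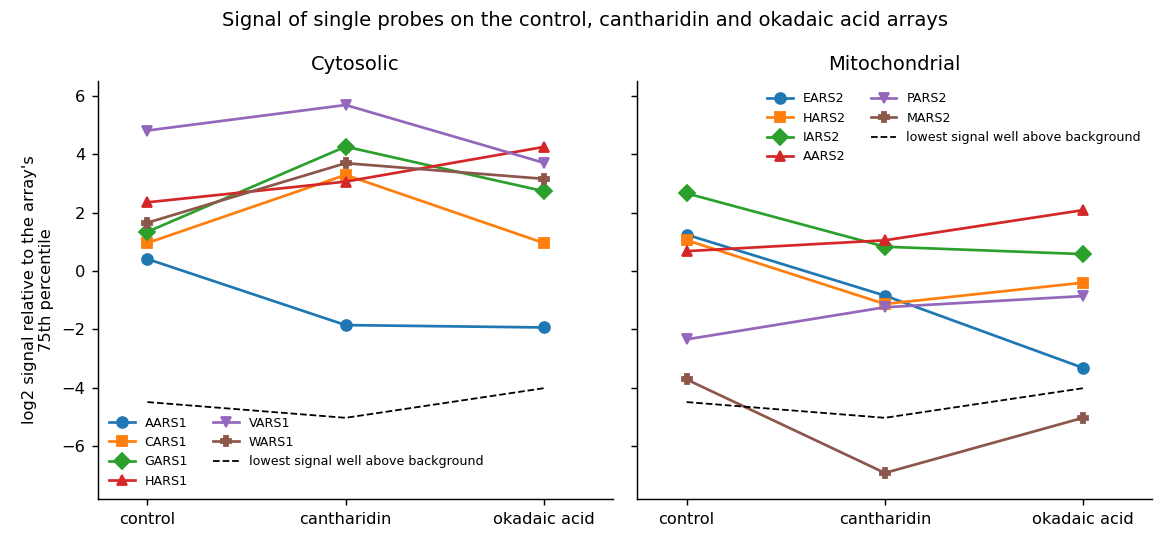
Log2 signal relative to the 75th percentile of each array for 6 cytosolic and 6 mitochondrial genes, with the array of each group on the horizontal axis and 1 probe per gene. The dashed line joins the lowest signals that were well above background. AARS1 drops on both treated arrays, HARS1 is highest under okadaic acid, VARS1 peaks under cantharidin, and MARS2 lies under the dashed line on both treated arrays. Levels of different probes are not comparable.

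Among the mitochondrial enzymes, 7 genes were lower under both agents with signals well above background on every array. The share of all genes lower under both agents was not counted, so this number has no reference to be set against. For each agent alone, 34.1% of all genes compared were lower with cantharidin and 28.8% with okadaic acid. EARS2, the glutamyl enzyme, which also supplies the mitochondrial glutamine tRNA with glutamate for later amidation, read 1855 in control cells, 397 with cantharidin and 94.0 with okadaic acid. It was 4.24-fold and 23.6-fold lower, and its okadaic acid intensity was 1.62 times the lowest one well above background. Over the alternative settings the okadaic acid difference of EARS2 ran from -5.16 to -3.53 on the log2 scale, so the direction held and the fold is loose. IARS2 read 4945, 1267 and 1397 and was 3.55-fold and 4.22-fold lower. HARS2 read 1626, 326 and 710 and was 4.54-fold and 2.73-fold lower. Control was the brightest array for all 3 genes, and the order of the treated arrays differed between them. LARS2 read 1722, 485 and 739, and NARS2 read 914, 321 and 559. LARS2 was 3.23-fold and 2.78-fold lower, and NARS2 2.59-fold and 1.95-fold.

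The other 2 of the 7 had smaller differences under cantharidin. FARS2 was 1.71-fold and 1.82-fold lower, and TARS2 1.61-fold and 2.39-fold. SARS2 read 3355, 1338 and 3310 and was 2.28-fold lower under cantharidin but level with control under okadaic acid in unscaled intensity (log2 difference -0.27 after scaling). The dimmest mitochondrial genes were MARS2 and WARS2. MARS2, the methionyl enzyme that serves both initiation and elongation in mitochondria, had 9 spots on each array, which ran from 49.1 to 91.7 in control cells, from 5.22 to 10.3 with cantharidin and from 20.5 to 36.6 with okadaic acid. The log2 SD between its spots was 0.283 to 0.320. Spots of the 3 arrays did not overlap, and neither treated array was well above background. Under the main processing this bounds the MARS2 decrease at no less than 2.48-fold with cantharidin and 1.23-fold with okadaic acid. The cantharidin bound depends on the processing, as the MARS2 log2 difference of -3.20 shrank to -0.73 with normexp and its offset of 50. Such an offset shrinks the differences of dim probes by construction. WARS2 read 71.1, 28.1 and 57.0, 2.30-fold lower with cantharidin. This log2 difference of -1.20 shrank to -0.54, within 1.5-fold, with normexp and the same offset. With okadaic acid its spot was too dim to be well above background, and the decrease was at least 1.46-fold under the main processing. Over the alternatives the WARS2 log2 difference with okadaic acid ran from -0.81 to -0.32.

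The mitochondrial enzymes that were not lower under either agent were PARS2, VARS2, AARS2, RARS2, YARS2 and CARS2. PARS2, the prolyl enzyme, read 155 in control cells, 301 with cantharidin and 516 with okadaic acid, 2.14-fold and 2.79-fold higher. VARS2 read 2782, 4940 and 6050, 1.95-fold and 1.82-fold higher. AARS2 read 1255, 1475 and 3966, with 0.37 under cantharidin and a 2.65-fold increase under okadaic acid. RARS2 read 6181, 6183 and 12835, with 0.14 under cantharidin and a 1.74-fold increase under okadaic acid. After scaling the okadaic acid array was the brightest for PARS2, AARS2 and RARS2, and the cantharidin array for VARS2. YARS2 and CARS2 stayed within 1.5-fold under both agents, with log2 differences of 0.07 and 0.29 for YARS2 and of -0.10 and -0.18 for CARS2.

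Pairing the enzymes for the same amino acid gave 17 pairs, in which EPRS1 and FARS2 each appear in 2. Under cantharidin the cytosolic gene had the greater log2 difference in 14 pairs, by at least 1.5-fold in 13, and the median gap was 2.42. Leaving out methionine, because MARS2 was not well above background with cantharidin, the cytosolic gene led in 13 of 16 pairs, by at least 1.5-fold in 12, with a median gap of 2.24. Gaps of 2.89 for histidine (HARS1 over HARS2), 2.74 for asparagine (NARS1 over NARS2) and 2.68 for isoleucine (IARS1 over IARS2) rested on clearly measured signals, while the 3.24 of tryptophan (WARS1 over WARS2) rested on the dim WARS2. The mitochondrial gene had the greater difference for alanine, proline and valine. Only for alanine was this past 1.5-fold, at -2.63.

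Under okadaic acid 14 pairs had both genes well above background on both arrays, and the cytosolic gene had the greater difference in 10 of them, by at least 1.5-fold in 7, with a median gap of 0.41. Methionine, leucine and tryptophan are left out of these counts because MARS2, LARS1 and WARS2 were too dim on the okadaic acid array, and with them the counts were 13 of 17 and 10. The range over the 14 pairs was wide, from -3.75 for alanine (AARS1 lower, AARS2 higher) to 4.95 for glutamate (EPRS1 and EARS2). Histidine had a gap of 3.35 and threonine 2.68. The mitochondrial gene had the greater difference by at least 1.5-fold in 4 pairs, which were alanine, valine (-1.97), proline (-1.09) and tyrosine (-0.90).

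**Figure D3:**
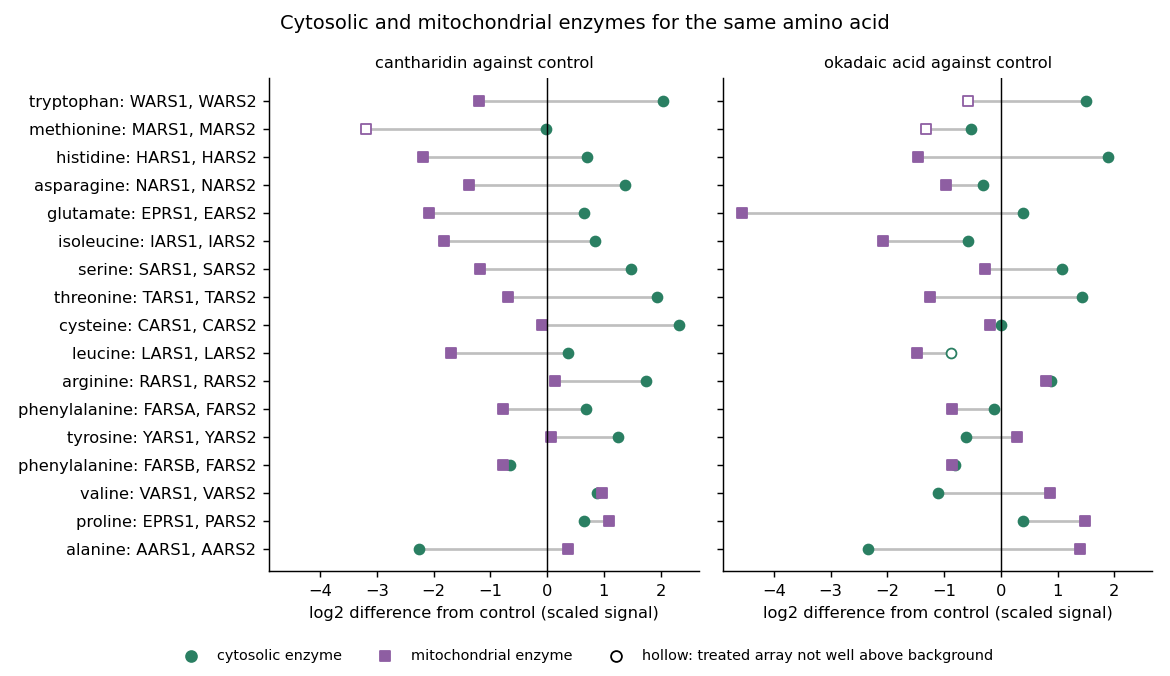
Log2 difference from control of the cytosolic (circles) and mitochondrial (squares) enzyme for the same amino acid, 1 row per pair, with cantharidin at left and okadaic acid at right. Each symbol is a difference between single arrays. Hollow symbols mark a treated array not well above background. Among rows without one, the circle lies right of the square in 13 of 16 for cantharidin and in 10 of 14 for okadaic acid, and the alanine row is reversed in both panels.

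The agents were also compared directly, without the control array and at the same dose and time as far as the sample labels give them. The degree of PP2A inhibition on each array was not measured here, so equal doses need not mean equal inhibition. Okadaic acid gave lower signals than cantharidin for 9 of the 19 cytosolic genes and higher signals for 1, where 22.3% of all 16200 genes compared were lower and 29.5% were higher. Of the 15 mitochondrial genes compared, 5 were higher and 1 was lower. Medians were -0.54 for the cytosolic genes, 0.22 for the mitochondrial genes and 0.13 for all genes. The largest differences were those of EARS2 (5.56-fold lower with okadaic acid), CARS1 (5.03-fold lower), VARS1 (3.94-fold lower), YARS1 (3.64-fold lower) and NARS1 (3.21-fold lower). On the other side stood HARS1 (2.28-fold higher with okadaic acid), AARS2 (2.05-fold) and SARS2 (1.88-fold). Levels of AARS1 under the agents differed by -0.08, less than the SD from spot noise.

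**Figure D4:**
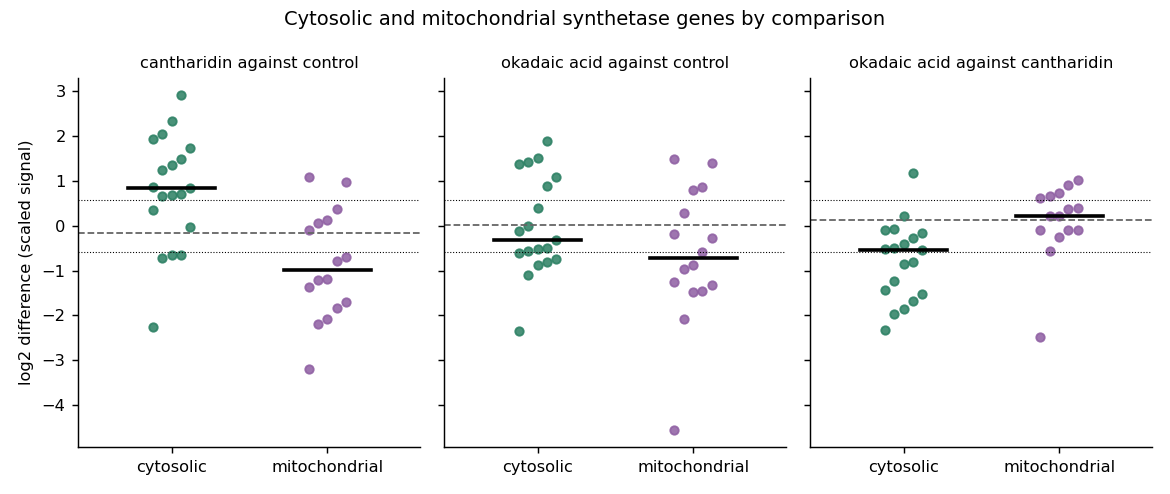
Log2 differences of the cytosolic and mitochondrial synthetase genes in the 3 comparisons, 1 point per gene. Black bars are class medians (0.85 and -0.98 for cantharidin, -0.32 and -0.72 for okadaic acid, -0.54 and 0.22 between the agents), dashed lines are the medians of all genes compared, and dotted lines mark 1.5-fold.

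Genes that work beside the synthetases are given by their function. The 3 scaffold genes of the multi-synthetase complex, AIMP1, AIMP2 and EEF1E1, were all within 1.5-fold of control under cantharidin (-0.30, -0.38 and 0.10), and AIMP1 alone was lower under okadaic acid (2.69-fold). All 4 genes of the mitochondrial glutaminyl and formylmethionyl steps were lower under cantharidin, where 34.1% of all genes were lower. MTFMT, which puts the formyl group on the initiator tRNA of mitochondria, was 2.92-fold lower under cantharidin and 5.94-fold under okadaic acid. GATB, a subunit of the amidotransferase that acts after EARS2, was 1.58-fold and 3.60-fold lower. Its partner GATC was lower under cantharidin (-0.92) and higher under okadaic acid (0.64). The last subunit gene, QRSL1, was not well above background on either treated array. Its control intensity was 1.20 times the lowest one well above background, and its cantharidin decrease is a bound of 1.55-fold.

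Among proofreading enzymes, DTD1 and DTD2, which remove D-amino acids and other wrong residues from tRNA, were both lower under both agents, with log2 differences of -0.81 and -2.26 for DTD1 and of -1.69 and -1.78 for DTD2. TARS3, a second threonyl enzyme of the cytosol, was 0.27 and 0.79, so it was higher with okadaic acid. AARSD1 had no matched probe. The cytosolic elongation factors, which carry charged tRNA to the ribosome and move it along, were all within 1.5-fold under cantharidin. All 5 were lower under okadaic acid, from 1.51-fold for EEF1A1 to 2.64-fold for EEF2, where 28.8% of all genes were lower. EEF1A1, with 1 of its 5 probes given, was only just past 1.5-fold (-0.60 on the log2 scale). These factors were not followed over the alternative settings. The scaling itself lowers okadaic acid signals relative to control, as the 75th percentiles were 936 and 784. Of the 4 mitochondrial elongation factors, TUFM, TSFM and GFM2 were lower under cantharidin, and TUFM and GFM1 were lower and TSFM higher under okadaic acid.

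Enzymes that cut and finish tRNA ends gave large differences of both signs under cantharidin. PRORP, the catalytic subunit of mitochondrial RNase P, read 2288 in control cells, 282 with cantharidin and 3221 with okadaic acid, and was 7.38-fold lower with cantharidin only. ELAC2, which cuts the opposite end of the precursor in nucleus and mitochondria, was 3.95-fold lower with cantharidin and 0.43 on the log2 scale with okadaic acid. ELAC1, its shorter relative, was 4.94-fold and 2.85-fold higher. The control intensity of ELAC1 was only 1.13 times the lowest one well above background, so both folds are loose. TRNT1, which adds the CCA end, was 1.57-fold higher under cantharidin and 0.11 on the log2 scale under okadaic acid.

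Genes of the amino acid response were examined as 2 lists. Of 7 factors and feedback genes (ATF4, DDIT3, ATF3, CEBPB, TRIB3, SESN2 and CHAC1), 7 were higher under cantharidin (median 4.43) and 6 under okadaic acid (median 2.43), with DDIT3 lower under the latter. ATF4 itself was 2.78-fold and 1.70-fold higher. Of 12 genes for amino acid synthesis and transport, 9 were higher and 1 lower under cantharidin (median 1.80), and 1 was higher and 3 lower under okadaic acid (median -0.20). The shares were 75% higher and 8.33% lower with cantharidin, where all genes had 27.5% and 34.1%, and 8.33% higher and 25% lower with okadaic acid, where all genes had 28.1% and 28.8%. ASNS, asparagine synthetase, read 15333 in control cells, 87681 with cantharidin and 22198 with okadaic acid, 6.29-fold higher with cantharidin and 0.28 on the log2 scale with okadaic acid. The other genes at least 1.5-fold higher under cantharidin only were PSAT1 and PHGDH of serine synthesis, MTHFD2 of the mitochondrial folate cycle, and the transporter genes SLC7A5, SLC3A2, SLC7A1 and SLC1A5. SLC7A11, the cystine transporter, was 24.3-fold and 6.71-fold higher. The amino acid transporter gene SLC38A2 was 3.53-fold and 6.97-fold lower. Directly compared, 11 of these 12 genes were lower with okadaic acid than with cantharidin (median -1.84). Among all genes in that comparison 22.3% were lower, and the median was 0.13.

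**Figure D5:**
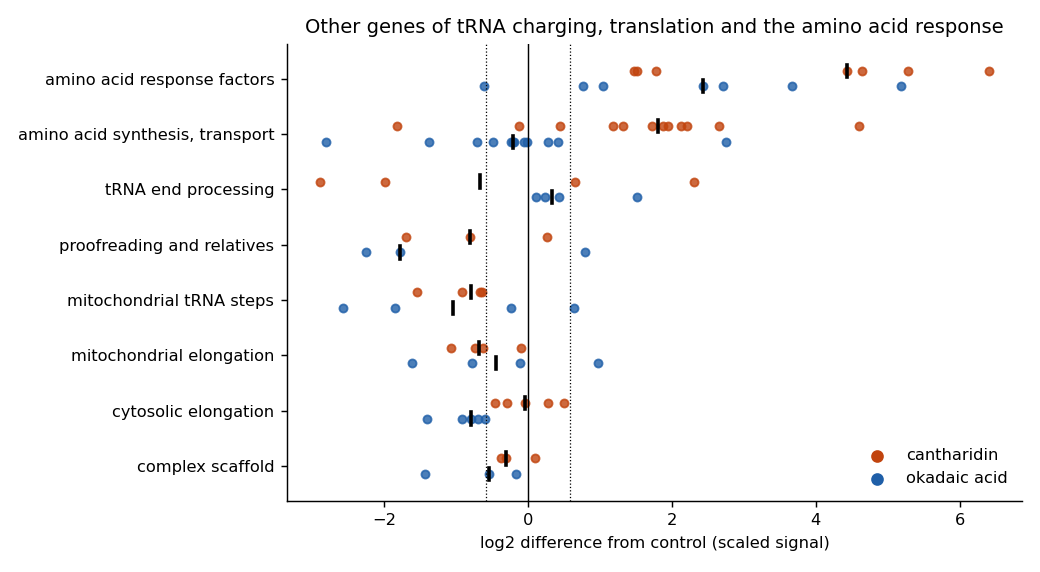
Log2 difference from control of genes in 8 lists related to tRNA charging, translation and the amino acid response, 1 point per gene and agent, with black bars for list medians and dotted lines at 1.5-fold. The amino acid synthesis and transport list has a median of 1.80 with cantharidin and -0.20 with okadaic acid, and all 5 cytosolic elongation factors lie left of the dotted line under okadaic acid.

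The promoters are shown because the synthetases and the amino acid response genes were described side by side. The letters TGATGNAA (TTNCATCA on the other strand), the core of the element that ATF4 binds together with C/EBP proteins, were searched on both strands of the RefSeq promoter windows of GRCh38.p14, which run from 250 bases before to 50 after a transcript start. The letters were present for 1217 of 27305 genes with a window (4.46%). Windows were found for 30 synthetase genes, and 8 held the letters, 7 of 16 cytosolic genes (43.8%) and 1 of 14 mitochondrial genes (7.14%). LARS1, VARS1, YARS1, AARS2 and VARS2 had none in the table. The amino acid synthesis and transport list held them in 4 of 9 windows (ASNS, SLC3A2, SLC7A1 and SLC1A5) and the list of factors and feedback genes in 2 of 7 (ATF3 and CHAC1). Each stretch of 30 bases below is written 5′ to 3′ on the strand of its gene, with the matching letters in capitals.
AARS1: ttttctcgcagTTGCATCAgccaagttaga
CARS1: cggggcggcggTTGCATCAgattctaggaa
GARS1: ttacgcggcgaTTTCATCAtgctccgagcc
IARS1: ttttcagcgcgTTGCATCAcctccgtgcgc
MARS1: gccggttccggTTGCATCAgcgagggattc
NARS1: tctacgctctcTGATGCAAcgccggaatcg
TARS1: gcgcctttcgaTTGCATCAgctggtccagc
YARS2: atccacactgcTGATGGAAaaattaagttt
The stretches lie at chr16:70289675-70289704 (minus strand) for AARS1, chr11:3057407-3057436 (minus) for CARS1, chr7:30594834-30594863 (plus) for GARS1, chr9:92293692-92293721 (minus) for IARS1, chr12:57488053-57488082 (plus) for MARS1, chr18:57621804-57621833 (minus) for NARS1, chr5:33440956-33440985 (plus) for TARS1 and chr12:32756076-32756105 (minus) for YARS2.

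The match began within 33 bases of the transcript start in 6 of the 7 cytosolic genes, and 187 bases upstream in AARS1. In the mitochondrial YARS2 it began 197 bases upstream. In 6 of the 7 cytosolic genes, all but GARS1, the open position held a C on the strand read as TGATGNAA. Among all 1217 genes with the letters, 295 had this form. By windows, it was present for 6 of 16 cytosolic genes (37.5%), 0 of 14 mitochondrial genes and 295 of the 27305 genes (1.08%). The form was noticed after these sequences were seen, so its share among them is no independent count. The 7 cytosolic genes with the letters had a median difference of 1.37 under cantharidin, with 5 higher, and the 9 without them 0.69, with 6 higher. Under okadaic acid the medians were -0.32 and 0.39, with 2 and 4 genes higher. AARS1 held the letters and had the lowest value of the class under both agents, and WARS1, SARS1 and RARS1 did not hold them and were higher under both. A match of letters is a description of the sequence and says nothing of what binds there.

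HARS1 and HARS2 are neighbours transcribed away from each other, and their starts leave 84 bases between them at chr5:140691371-140691454. This stretch is printed because the genes on its sides went in opposite directions under both agents, and it is read on the plus strand, the strand of HARS2.
HARS1 and HARS2 interval: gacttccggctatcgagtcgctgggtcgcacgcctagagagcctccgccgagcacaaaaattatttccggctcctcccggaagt
GC content of the interval was 59.5%. HARS1 was 0.71 and HARS2 -2.18 under cantharidin, and the values were 1.90 and -1.45 under okadaic acid. Another 5 synthetase genes had a neighbour starting within 200 bases on the opposite strand, a look at the annotation that was taken after the values were seen. WARS1 (2.04 under cantharidin) had WDR25 at 0.04, KARS1 (-0.71) had TERF2IP at 0.94, and RARS2 (0.14) had ORC3 at -1.63. FARS2 (-0.78) had LYRM4 at -0.89, and SARS2 (-1.19) had MRPS12, a protein of the mitochondrial ribosome, at -0.65. In these last 2 both neighbours were lower with cantharidin. With okadaic acid FARS2 was -0.86 with LYRM4 at -0.18, SARS2 -0.27 with MRPS12 at -0.30, WARS1 2.83-fold higher with WDR25 at -0.28, KARS1 -0.50 with TERF2IP at 0.61, and RARS2 0.80 with ORC3 at -0.18.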

How the data were processed

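Total RNA from control, cantharidin and okadaic acid PANC-1 cells (1 array each) was measured on Agilent 1-colour arrays. The authors deposited spot intensity values from Feature Extraction 11.0.1.1, background-subtracted per the file headers, with flags for outliers and signal above background, and a normalized table of log2 values. How that table was made is not given in the sources used here, and each of its columns correlated best with its own array (r at least 0.998). Probe annotation used hg19.

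Control and outlier spots were left out, spots of a probe averaged as log2, and each array's 75th percentile subtracted, giving 34041 probes. Accessions were matched to RefSeq of GRCh38.p14, which named 25705 probes and 19699 genes. Where a gene had several probes, the one with the highest mean signal stood for it (33 of the 35 members had 1 probe), and it was compared when either of the 2 arrays was well above background. A fold with 1 dim array is a bound under the main processing only. It was set by the lowest signal well above background on that array or by the dim signal itself, whichever was higher. Members, lists and naming rule (every member passing 1.5-fold with signals well above background, probes that disagree, and same-amino-acid pairs) were chosen with earlier results of these data known. A gene count treats a member past 1.5-fold as called also where 1 array was dim. The alternatives were other background correction, scaling, filters, probe choice, threshold and the deposited table. The other background correction was normexp (limma 3.58.1, R 4.3.3) on median spot intensity, with an offset of 50 added to every value. Scripts (Python 3.11.15, numpy 2.4.6, pandas 2.3.3) were tested on simulated data.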

Additional observations from a re-analysis of the deposited data

How the results depend on the processing

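With 1 array per group no array could be left out, and no paired analysis was possible because each group has 1 array. Dim spots limit LARS1, MARS2 and WARS2, and no value has an error between cultures. Over the alternatives, the cytosolic genes higher under cantharidin numbered 8 to 14 (main value 13, and 8 at a 2-fold threshold) and those higher under okadaic acid 5 to 7, and the mitochondrial genes lower numbered 8 to 10 under cantharidin and 6 to 9 under okadaic acid. The gap between class medians stayed positive under both agents and negative between them in every alternative run. For cantharidin it was 1.83, falling to 1.43 with normexp and 1.59 when only genes well above background on all 3 arrays were kept. For okadaic acid it was 0.40, with 0.094 after normexp, 0.55 after quantile normalization, 0.67 from the deposited table and 0.31 with dim signals set to the floor of their array. Between okadaic acid and cantharidin it was -0.75, and -1.02 when each gene took the median of its probes. The offset of 50 in the normexp setting shrinks differences of dim probes by construction. Other causes of these moves were not tested. Of the 29 genes past 1.5-fold under cantharidin, 22 kept their side in every alternative, and of 24 under okadaic acid 19 did. Those that did not were EPRS1, FARSA, FARSB, HARS1, QARS1, TARS2 and WARS2 under cantharidin and FARSB, LARS1, MARS2, QARS1 and YARS1 under okadaic acid. LARS1 under okadaic acid turned from -0.87 to 0.0097 with dim signals at the floor, by construction. Scalings and background corrections moved the median of all genes over -0.30 to -0.09 with cantharidin and -0.11 to 0.26 with okadaic acid, while the cytosolic median ran from 0.71 to 0.92 and from -0.44 to -0.06, and the mitochondrial one from -1.12 to -0.57 and from -0.92 to -0.39. Without scaling, 36.6% of all genes were higher and 22.4% lower under okadaic acid. The alternatives between the agents and the pair counts without dim genes were chosen after the data were seen. Genes of the other lists were not followed over the alternatives.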
